A study of Mus musculus with 12 samples.

Results

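The immediate early and heat shock genes are a set of 39 mouse genes taken by name. They hold 28 immediate early genes (AP-1 and ATF subunits, early growth response factors, NR4A receptors, Kruppel-like factors and Myc, MAP kinase phosphatases and 7 others) and 11 heat shock genes. 38 of the 39, among 19938 genes with a probe set of 1 symbol, were measured: all 28 immediate early genes and 10 heat shock genes. Hspa1b was not analysed here, because the probe set annotated to it also names Hspa1a. Where a gene had several probe sets, the one brightest on average was read. The genes are listed by name and not by a measured value, but the set was drawn up with earlier results of these data known.

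The study profiled macrophages sorted from the skin of untreated wild-type mice, strain B6, kept specific pathogen free (SPF), whose ages are not given in the labels. There were 3 arrays for each of 4 groups: MHC-II-positive melanophages, MHC-II-negative melanophages, MHC-II-positive macrophages and MHC-II-negative macrophages. Melanophages are macrophages laden with the pigment melanin. By the labels every group was sorted as CD11b-positive, CD24-negative, CD64-positive cells lacking CCR2 and Ly6C, with a high side scatter for melanophages. For macrophages the sample titles and the phenotype entries disagree on side scatter. Of the defining macrophage markers, Csf1r averaged 9.35 to 9.83 and Adgre1 9.18 to 9.40 over the groups on the log2 scale. Mertk was lower, at 4.23 to 4.50.

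Immediate early genes are switched on within minutes of a stimulus from transcription factors that already wait in the cell, and need no new protein. Many encode transcription factors (Fos, Jun, Egr and Nr4a families), and others encode brakes on the same signals, such as the phosphatases that turn off MAP kinases. Heat shock genes encode chaperones that hold or refold damaged proteins, and heat shock factors drive them through short repeats in their promoters. Both kinds of gene are known to respond to the isolation of cells from a tissue as well as to signals in the tissue. Every sample here was isolated and sorted, so the 2 cannot be told apart.

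All values are log2 expression values per array, and array medians over all probe sets lay between 2.97 and 3.08, so a gene near 3 is dim and its differences may be understated. Nothing in the labels ties the 3 arrays of a group to separate mice, so the p-values given here reflect only how far these arrays differ, a spread that may be technical. The mean correlation with group mates was 0.978 for MHC-II-positive macrophages replicate 3 and 0.972 for MHC-II-negative macrophages replicate 1. The other 10 arrays had 0.980 to 0.988. The differences below are therefore given with and without both distant macrophage arrays. Tests are limma's moderated test, two-sided, with Benjamini-Hochberg adjustment over all 19938 genes, and a gene was called at an adjusted p under 0.05.

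RefSeq promoter windows (build GRCm38.p6) from 250 bases before to 50 after an annotated start were at hand for 32 of the 39 genes, in 41 windows, and were searched on both strands. Heat shock factor binds inverted repeats of GAA. The spelling GAANNTTC occurred in 7 of 8 heat shock genes with a window (Bag3, Dnaja1, Hspa1a, Hspb1, Hspd1, Hspe1 and Hsph1) and in 2 of 24 immediate early genes (Fosl2 and Jun), against 9.04% of all 27025 genes in the table. Hspd1 and Hspe1 have overlapping windows on opposite strands and share their letters. The inverse spelling TTCNNGAA occurred in 3 heat shock genes (Hspd1, Hspe1 and Hsph1) and in Egr2, against 9.6% of genes, and it can overlap the other spelling.

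The 3 heat shock windows shown here belong to the chaperones discussed most below, with the heat shock repeats in capitals. Hspa1a lies on the minus strand at chr17:34972107-34972406, with 1 repeat at position -104 from the start. Hspb1 lies on the plus strand at chr5:135887669-135887968, with repeats at -117 and -97. Hsph1 lies on the minus strand at chr5:149636266-149636565, with a repeat at -54 and an overlapping pair that begins at 15 bases after the start.
Hspa1a: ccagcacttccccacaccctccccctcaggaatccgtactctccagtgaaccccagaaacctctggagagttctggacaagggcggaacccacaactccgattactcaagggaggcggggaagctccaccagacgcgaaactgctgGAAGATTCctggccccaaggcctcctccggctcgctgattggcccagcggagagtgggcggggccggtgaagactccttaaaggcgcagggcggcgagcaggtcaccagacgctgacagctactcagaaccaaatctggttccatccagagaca
Hspb1: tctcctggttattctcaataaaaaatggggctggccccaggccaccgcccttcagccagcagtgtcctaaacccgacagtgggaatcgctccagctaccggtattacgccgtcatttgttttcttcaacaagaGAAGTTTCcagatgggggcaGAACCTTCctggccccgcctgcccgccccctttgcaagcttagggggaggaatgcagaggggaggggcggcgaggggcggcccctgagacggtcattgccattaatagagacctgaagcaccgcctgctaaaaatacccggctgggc
Hsph1: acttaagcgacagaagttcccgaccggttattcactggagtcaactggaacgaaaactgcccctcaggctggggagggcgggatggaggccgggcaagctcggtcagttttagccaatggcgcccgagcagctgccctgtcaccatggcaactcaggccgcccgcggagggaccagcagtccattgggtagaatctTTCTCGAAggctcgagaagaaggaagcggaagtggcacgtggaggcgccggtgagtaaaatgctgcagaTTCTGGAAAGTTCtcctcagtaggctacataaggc

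Serum response factor, which many immediate early genes use, binds the CArG box. This motif occurred in 3 of the 32 genes (Dusp5, Egr2 and Zfp36), against 1.81% of all genes. The cyclic AMP response element TGACGTCA occurred in Btg2 and Dusp1, against 2.03% of genes. The AP-1 site TGANTCA occurred in Bag3 alone among the 32, against 8.97% of genes. An example of each of the first pair is shown with the motif in capitals. Egr2 is read on the plus strand at chr10:67537619-67537918, 1 of its 5 windows, with the CArG box at -72. Btg2 is read on the minus strand at chr1:134079106-134079405, with the element at -166.
Egr2: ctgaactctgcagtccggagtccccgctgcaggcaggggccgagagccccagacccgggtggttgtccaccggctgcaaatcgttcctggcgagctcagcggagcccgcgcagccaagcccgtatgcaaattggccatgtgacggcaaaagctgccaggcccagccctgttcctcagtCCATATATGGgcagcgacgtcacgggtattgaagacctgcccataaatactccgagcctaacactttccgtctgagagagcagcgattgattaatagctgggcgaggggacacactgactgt
Btg2: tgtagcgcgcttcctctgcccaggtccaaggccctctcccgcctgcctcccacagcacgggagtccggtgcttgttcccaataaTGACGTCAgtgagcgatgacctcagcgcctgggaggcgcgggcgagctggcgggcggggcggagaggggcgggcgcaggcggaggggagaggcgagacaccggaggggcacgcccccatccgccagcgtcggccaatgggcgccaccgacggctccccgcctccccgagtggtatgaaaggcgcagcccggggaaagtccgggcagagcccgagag
Matches in these short windows are a description of letters, and the arrays say nothing about binding.

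Across the 2 cell kinds, the members were lower on average in melanophages than in macrophages, by small amounts, and no single gene passed the test over all genes. Averaged over MHC-II class, 35 of 38 log2 differences lay below 0, against 45.2% of all genes. The median was -0.22 for the members and 0.01 for all genes. All 10 heat shock genes lay below 0 (median -0.24), as did 25 of 28 immediate early genes (median -0.16). Fos, Rhob and Gadd45b were the exceptions. With limma, 0 of 38 had an adjusted p under 0.05, where 0.12% of all genes did. At an unadjusted p under 0.05, 9 were lower, against 3.42% of all genes, and 0 were higher, against 4.11%. The members are brighter than most genes. With only genes whose highest group mean was above the median gene, the share lower was 4.89%, and 9 members were lower. Without any 1 array the count of lower members ran over 7 to 15. It was 15 without MHC-II-negative macrophages replicate 1 (5.41% of all genes), 15 without MHC-II-positive macrophages replicate 3 (4.85%) and 14 without MHC-II-positive melanophages replicate 3 (3.37%). Without both distant macrophage arrays it was 21, against 7.35% of all genes, and 0 were higher in any of these fits. The 9 over 12 arrays were Jun, Atf3, Nr4a1, Klf6, Btg2, Hspa1a, Hspa8, Hsph1 and Hspb1. In a sorted population, fewer cells with a transcript and less of it per cell cannot be told apart.

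**Figure D1:**
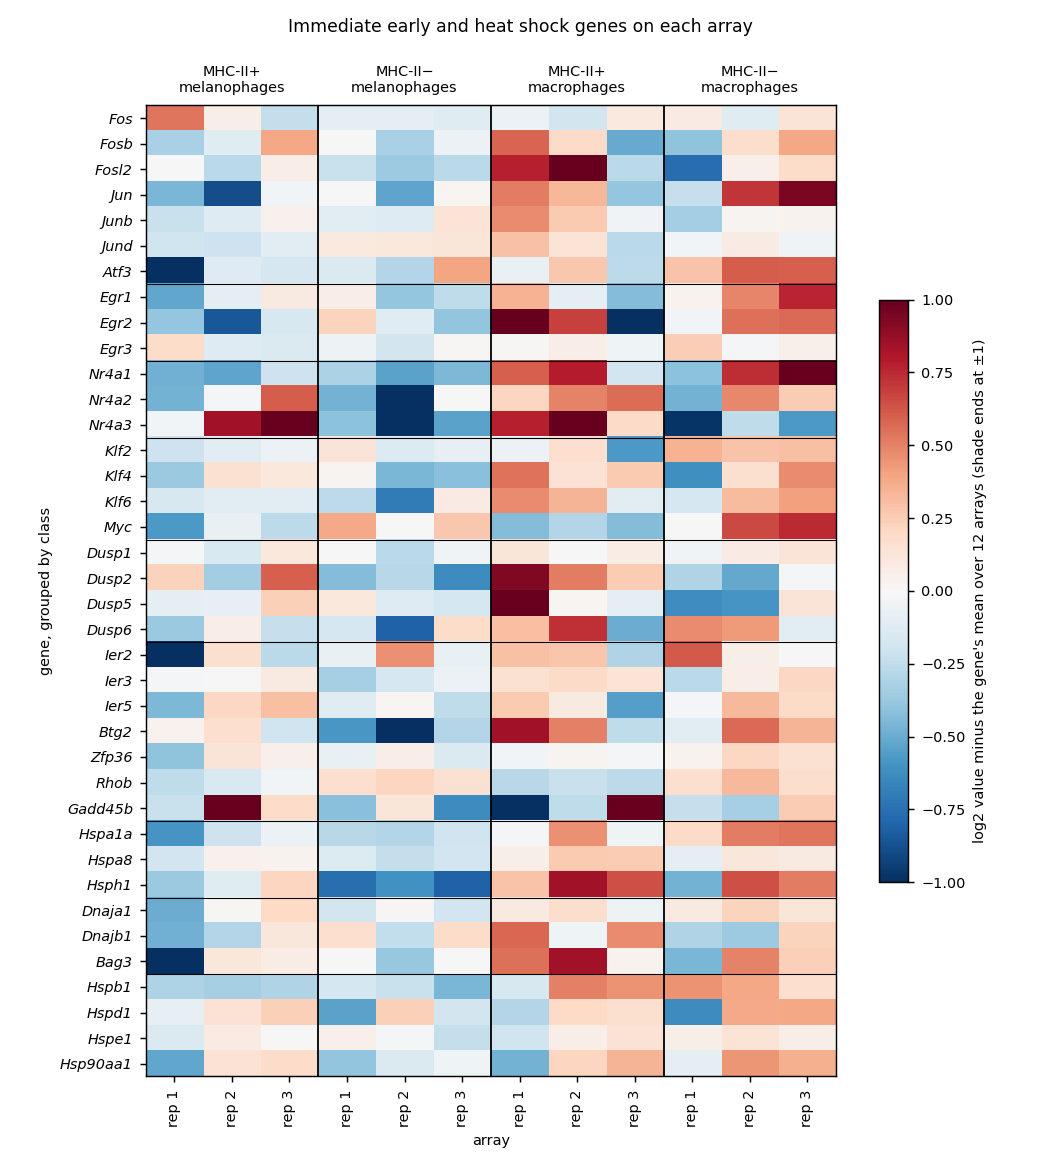
Heat map of the 38 measured genes (rows, grouped by class) on the 12 arrays (columns, grouped by sort). The shade is the log2 value minus the gene's mean over the 12 arrays and ends at plus or minus 1. Most rows are red on 4 macrophage arrays. Most immediate early rows are pale or blue on the other 2, MHC-II-positive macrophages replicate 3 and MHC-II-negative macrophages replicate 1, while several heat shock rows stay red on the first of these.

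Members below 0 outnumbered the others in each MHC-II class. Among MHC-II-positive cells 31 of 38 differences lay below 0 (45.8% of all genes), and 0 of 38 were called where 0.015% of all genes were. 7 had an unadjusted p under 0.05, all lower, against 6.3% of all genes in either direction. Among MHC-II-negative cells 34 of 38 lay below 0 (47.6% of all genes), and 0 were called where 0.00502% were. 8 had an unadjusted p under 0.05, all lower, against 5.65% of all genes in either direction. Nr4a1, Hspa1a, Hspa8, Hsph1 and Hspb1 were among them in both classes. The interaction of cell kind with MHC-II class was called for 0 of 38 members and 0% of all genes. At an unadjusted p under 0.05 it took in 1 member, Dnajb1 (-0.74, SE 0.31), against 4.11% of all genes.

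Between MHC-II classes the members split in direction. The MHC-II-positive mean was the higher one for 20 of 38 genes and the lower one for 18, with a median difference of 0.02, against -0.02 for all genes. 2 were called with limma, Nr4a3 higher and Rhob lower, where 0.762% of all genes were called. At an unadjusted p under 0.05, 5 were higher (Nr4a3, Dusp2, Ier3, Hspa8 and Hsph1), against 4.6% of all genes. A further 4 were lower (Rhob, Myc, Atf3 and Klf2), against 4.62%. Within macrophages 1 member, Rhob, was called, where 0.341% of all genes were. Within melanophages 0 were called, where 0.211% were. The unadjusted threshold took in 6 members within macrophages (7.83% of all genes) and 7 within melanophages (5.7%).

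**Figure D2:**
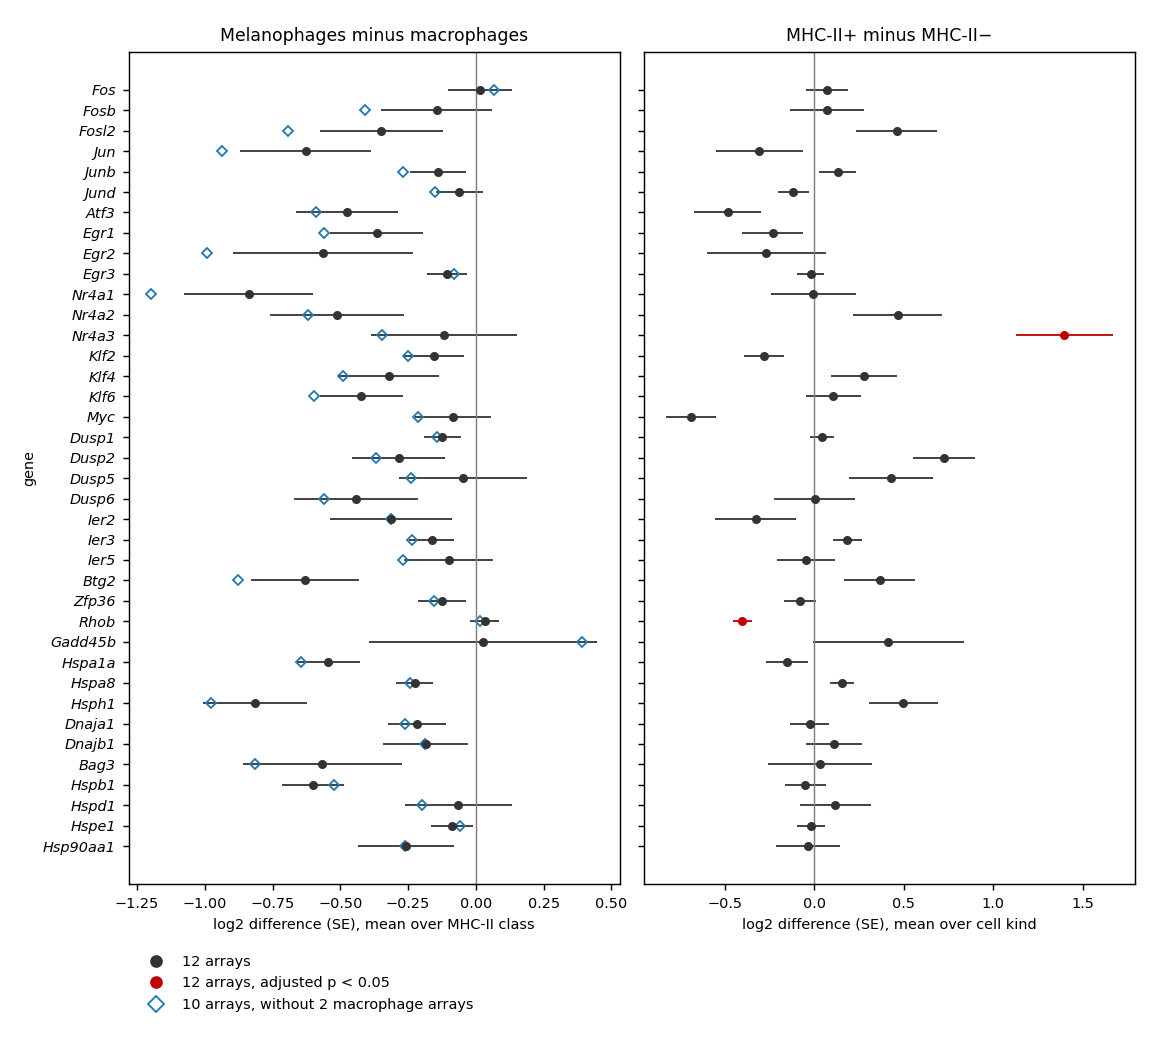
Log2 differences of the 38 genes, melanophages minus macrophages on the left and MHC-II-positive minus MHC-II-negative cells on the right. Points are the fit to 12 arrays with its SE, red where the adjusted p was under 0.05, and open diamonds are the fit without both distant macrophage arrays. Nearly all points on the left lie below 0, while those on the right fall on both sides, with Nr4a3 (1.40) and Rhob (-0.40) in red.

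Among the AP-1 and ATF subunits, which pair up to bind DNA as the AP-1 factor, Jun and Atf3 differed most. Jun read 8.44, 8.02 and 8.88 in MHC-II-positive melanophages and 8.90, 8.38 and 8.92 in MHC-II-negative melanophages, against 9.41, 9.24 and 8.52 in MHC-II-positive macrophages and 8.68, 9.62 and 9.84 in MHC-II-negative macrophages. 4 macrophage arrays lay above all 6 melanophage arrays, and both distant ones lay within the melanophage range. The difference was -0.63 (SE 0.24, adjusted p = 0.575 with limma), and -0.94 without both distant arrays (adjusted p = 0.0633). Atf3, a stress-induced repressor, ranged over 9.07 to 10.55 across melanophage arrays, against 9.89 to 10.77 across macrophage arrays, with a difference of -0.48 (adjusted p = 0.595 with limma). Its lowest value was on MHC-II-positive melanophages replicate 1.

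Atf3 was also lower in MHC-II-positive cells (-0.48, SE 0.19), which did not pass the adjusted test (adjusted p = 0.442 with limma). Fosl2, a Fos-related partner of Jun, read 5.66, 5.39 and 5.73 in MHC-II-positive melanophages and 5.44, 5.29 and 5.39 in MHC-II-negative melanophages, against 6.44, 6.72 and 5.39 in MHC-II-positive macrophages and 4.89, 5.71 and 5.84 in MHC-II-negative macrophages. Its highest values were on 2 arrays of MHC-II-positive macrophages and its lowest on MHC-II-negative macrophages replicate 1. Its difference was -0.35 over 12 arrays (adjusted p = 0.791 with limma) and -0.69 over 10 (adjusted p = 0.0276). Over those 10 arrays Fosl2 was also called higher in MHC-II-positive cells (0.51, adjusted p = 0.0464). Fos, the first described partner of Jun, ranged over 7.39 to 8.16 across melanophage arrays, against 7.44 to 7.76 across macrophage arrays (difference 0.02, SE 0.12). Fosb (-0.14), Junb (-0.14) and Jund (-0.06) had small differences with overlapping arrays.

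The early growth response genes encode zinc finger factors, of which Egr2 is known for its part in macrophage and lymphocyte activation. Egr2 read 8.12, 7.66 and 8.35 in MHC-II-positive melanophages and 8.73, 8.38 and 8.11 in MHC-II-negative melanophages, against 9.55, 9.19 and 7.37 in MHC-II-positive macrophages and 8.48, 9.06 and 9.07 in MHC-II-negative macrophages. MHC-II-positive macrophages thus held both its highest array and its lowest. Its difference was -0.56 (SE 0.33, adjusted p = 0.759 with limma), and -0.99 without both distant arrays (adjusted p = 0.0461). Egr1 ranged over 7.47 to 8.08 across melanophage arrays, against 7.55 to 8.74 across macrophage arrays (difference -0.37, adjusted p = 0.681 with limma). Egr3 was the member with the lowest mean level, at 3.81 to 4.17 across melanophage arrays, against 3.95 to 4.24 across macrophage arrays.

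The NR4A receptors are nuclear receptors that act without a known circulating ligand, and all 3 family members were measured. Nr4a1, known as Nur77, read 7.06, 7.01 and 7.33 in MHC-II-positive melanophages and 7.22, 7.001 and 7.09 in MHC-II-negative melanophages, against 8.14, 8.32 and 7.35 in MHC-II-positive macrophages and 7.13, 8.27 and 8.53 in MHC-II-negative macrophages. The 6 melanophage arrays lay at 7.001 to 7.33. MHC-II-negative macrophages replicate 1 fell among them, MHC-II-positive macrophages replicate 3 lay just above, and the other 4 macrophage arrays were all at 8.14 or higher. Its difference was -0.84 (SE 0.24, 1.79-fold lower), and it did not pass (adjusted p = 0.368 with limma). Without both distant arrays it was -1.20 (2.29-fold lower, adjusted p = 0.00429), and it was then called in MHC-II-positive cells (adjusted p = 0.0376) and in MHC-II-negative cells (adjusted p = 0.0296) alone.

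Between MHC-II classes Nr4a1 differed by -0.01 (SE 0.24). Nr4a3, known as NOR1, read 7.37, 8.24 and 8.61 in MHC-II-positive melanophages and 8.18, 8.60 and 7.59 in MHC-II-positive macrophages, against 6.99, 5.97 and 6.86 in MHC-II-negative melanophages and 6.42, 7.15 and 6.82 in MHC-II-negative macrophages. All 6 MHC-II-positive arrays lay above all 6 MHC-II-negative arrays, as for 0.732% of all genes. Nr4a3 rose by 1.40 (SE 0.27, 2.63-fold, adjusted p = 0.047 with limma). The difference was 1.47 within melanophages (adjusted p = 0.327) and 1.32 within macrophages (adjusted p = 0.295), and neither passed on its own. The call lies close to the threshold: it was lost in 14 of 23 alternative fits, with adjusted p up to 0.128. Of the 12 arrays, the call was kept only on leaving out replicate 1 of the MHC-II-positive melanophages or replicate 3 of the MHC-II-positive macrophages. Without both distant arrays the difference was 1.44 (adjusted p = 0.0735). Its cell kind difference was small (-0.12, SE 0.27).

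Nr4a2, or Nurr1, ranged over 6.68 to 7.76 across MHC-II-positive arrays, against 5.96 to 7.64 across MHC-II-negative arrays, a difference of 0.47 (SE 0.25, adjusted p = 0.626 with limma). By cell kind its difference was -0.51 (SE 0.25, adjusted p = 0.692), with arrays that overlapped in both comparisons.

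**Figure D3:**
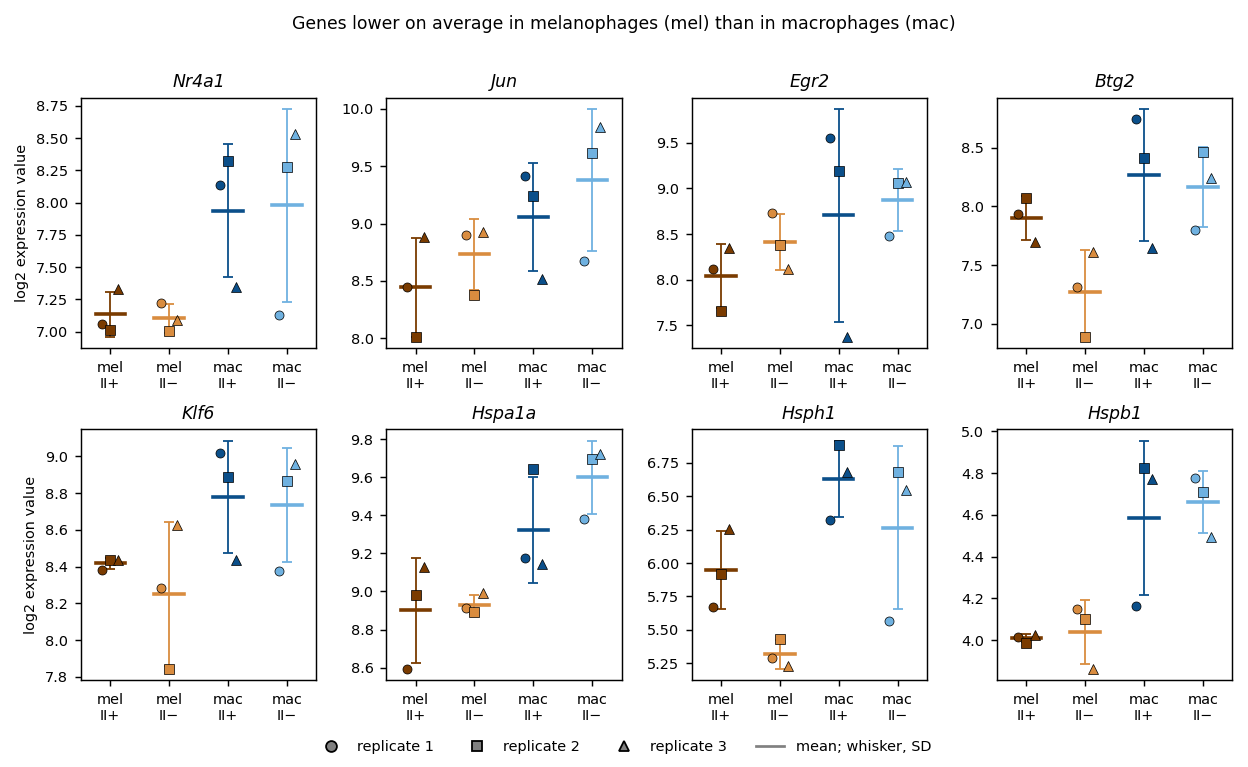
Log2 values of 8 genes on each array by group, melanophages (brown) left of macrophages (blue), with group means and SD as lines and whiskers and the replicate number as the symbol. The vertical axes do not start at 0 and differ between panels. For Nr4a1 the 6 melanophage arrays lie between 7.001 and 7.33, below 4 macrophage arrays at 8.14 to 8.53, while 1 macrophage array of each MHC-II class sits low.

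Of the Kruppel-like factors, zinc finger regulators that include Klf2 and Klf4 with known anti-inflammatory roles in macrophages, Klf6 had the largest cell kind difference. Klf6 read 8.38, 8.44 and 8.43 in MHC-II-positive melanophages and 8.29, 7.84 and 8.63 in MHC-II-negative melanophages, against 9.02, 8.89 and 8.44 in MHC-II-positive macrophages and 8.38, 8.87 and 8.96 in MHC-II-negative macrophages. 4 macrophage arrays were above every melanophage array and the distant ones were not. The difference was -0.42 (SE 0.15, adjusted p = 0.532 with limma), and -0.60 without both (adjusted p = 0.0882). Klf4 differed by -0.32 and Klf2 by -0.15 between cell kinds. Klf2 was lower in MHC-II-positive cells (-0.28, SE 0.11) without passing the test (adjusted p = 0.454 with limma).

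Myc, the growth-promoting transcription factor, separated the MHC-II classes. It read 9.18, 9.69 and 9.50 in MHC-II-positive melanophages and 9.33, 9.47 and 9.33 in MHC-II-positive macrophages, against 10.13, 9.76 and 10.03 in MHC-II-negative melanophages and 9.75, 10.42 and 10.51 in MHC-II-negative macrophages. All 6 MHC-II-positive arrays lay below all 6 MHC-II-negative ones, which held for Myc and Rhob among the members and for 0.376% of all genes. The difference was -0.69 (SE 0.14, 1.61-fold lower). It narrowly missed the threshold (adjusted p = 0.06 with limma), and it passed in 8 of 23 alternative fits. Among them were those without MHC-II-negative macrophages replicate 1 (adjusted p = 0.00692) and without both distant arrays (adjusted p = 0.0187). Both of these leave out its lowest MHC-II-negative value, which widens the difference by construction.

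The dual-specificity phosphatases remove phosphate from MAP kinases and so close the pathway that induces them. Dusp2, also called PAC1, read 4.47, 3.89 and 4.84 in MHC-II-positive melanophages and 5.16, 4.74 and 4.49 in MHC-II-positive macrophages, against 3.80, 3.96 and 3.60 in MHC-II-negative melanophages and 3.93, 3.72 and 4.22 in MHC-II-negative macrophages. Only MHC-II-positive melanophages replicate 2 overlapped the MHC-II-negative arrays. The difference was 0.72 (SE 0.17, 1.65-fold, adjusted p = 0.117 with limma). It passed in 1 of 23 alternative fits, the one without that array (adjusted p = 0.0414). That array held the lowest MHC-II-positive value, so leaving it out widens the difference by construction. Dusp1 spanned 10.99 to 11.37 across melanophage arrays, against 11.22 to 11.39 across macrophage arrays. Dusp5 (-0.05) and Dusp6 (-0.44) overlapped between the cell kinds, and the highest Dusp5 value by a wide margin was 6.89 on MHC-II-positive macrophages replicate 1.

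Rhob, a small GTPase that controls vesicle traffic and is itself rapidly induced, gave the most even readings of the set. It read 7.03, 7.13 and 7.25 in MHC-II-positive melanophages and 7.004, 7.06 and 7.02 in MHC-II-positive macrophages, against 7.45, 7.50 and 7.44 in MHC-II-negative melanophages and 7.45, 7.61 and 7.46 in MHC-II-negative macrophages. Every MHC-II-positive array was lower than every MHC-II-negative one. Rhob fell by 0.40 on the log2 scale (SE 0.05, 1.32-fold, adjusted p = 0.00542 with limma). Within macrophages it fell by 0.48 (adjusted p = 0.0242), a call lost in 13 of 24 alternative fits, and within melanophages the difference was -0.32 (adjusted p = 0.231). The pooled SD between arrays of a group was 0.07 for Rhob, lower than for any gene of like mean level, and over both cell kinds the adjusted p was 0.201 when limma's variance prior followed the mean level with robust estimation.

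**Figure D4:**
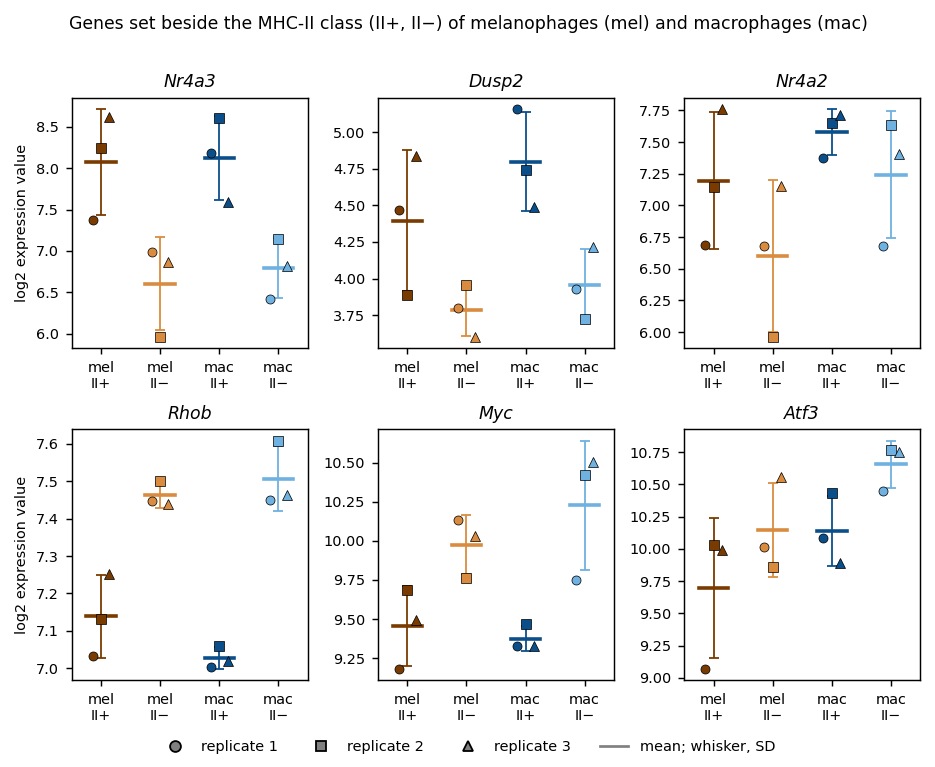
Log2 values of 6 genes on each array by group, drawn as in the plot of cell kind genes, with MHC-II-positive left of MHC-II-negative in each cell kind. The vertical axes do not start at 0 and differ between panels. Nr4a3 lies between 7.37 and 8.61 on MHC-II-positive arrays and between 5.97 and 7.15 on MHC-II-negative arrays, while Rhob and Myc run the other way.

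The other immediate early genes were mixed. Btg2, an antiproliferative gene, read 7.94, 8.07 and 7.70 in MHC-II-positive melanophages and 7.32, 6.89 and 7.61 in MHC-II-negative melanophages, against 8.75, 8.41 and 7.65 in MHC-II-positive macrophages and 7.79, 8.47 and 8.24 in MHC-II-negative macrophages. The 4 macrophage arrays without the distant ones were above all melanophage arrays. Its difference was -0.63 (SE 0.20, adjusted p = 0.435 with limma), and -0.88 without both (adjusted p = 0.0489). Zfp36, which encodes tristetraprolin, a factor that destabilises cytokine mRNAs, spanned 10.04 to 10.57 across melanophage arrays, against 10.42 to 10.65 across macrophage arrays. Ier2 (-0.31), Ier3 (-0.16) and Ier5 (-0.10) overlapped between cell kinds.

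Gadd45b, a stress sensor, varied most of all members between arrays of a group. It read 6.64, 7.91 and 7.04 in MHC-II-positive melanophages and 6.45, 6.98 and 6.23 in MHC-II-negative melanophages, against 5.68, 6.61 and 8.52 in MHC-II-positive macrophages and 6.63, 6.53 and 7.11 in MHC-II-negative macrophages. Its highest value was on MHC-II-positive macrophages replicate 3, the array on which 23 other members were the lowest of their group. The cell kind difference of 0.03 had an SE of 0.42.

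Among the heat shock genes, the largest differences over 12 arrays were those of Hsph1, Hspb1, Bag3 and Hspa1a and the smallest those of the mitochondrial pair Hspd1 and Hspe1. Hspa1a, the inducible HSP70, read 8.60, 8.98 and 9.13 in MHC-II-positive melanophages and 8.91, 8.89 and 8.99 in MHC-II-negative melanophages, against 9.18, 9.65 and 9.15 in MHC-II-positive macrophages and 9.38, 9.70 and 9.72 in MHC-II-negative macrophages. All 6 melanophage arrays lay below all 6 macrophage arrays, by a narrow gap from 9.13 to 9.15. The difference was -0.54 (SE 0.12, 1.46-fold lower, adjusted p = 0.172 with limma), and -0.64 without both distant arrays (adjusted p = 0.0642). Hspa1b is nearly identical to Hspa1a, so the probe set may read both.

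Hspb1, the small heat shock protein HSP27 in human naming, read 4.02, 3.99 and 4.03 in MHC-II-positive melanophages and 4.15, 4.10 and 3.86 in MHC-II-negative melanophages, against 4.16, 4.83 and 4.77 in MHC-II-positive macrophages and 4.78, 4.71 and 4.49 in MHC-II-negative macrophages. Hspb1 and Hspa1a were the 2 members whose melanophage arrays all lay below the macrophage arrays, as for 0.145% of all genes. Hspb1 had the smallest adjusted p of the members between cell kinds (-0.60, SE 0.11, 1.52-fold lower, adjusted p = 0.119 with limma). Its lowest macrophage value, 4.16, was on MHC-II-positive macrophages replicate 1, and without that array it was called (-0.71, adjusted p = 0.0194). This was the 1 call in 23 alternative fits, and leaving out the lowest value widens the difference by construction. A further probe set of Hspb1 gave -0.55 but did not separate the cell kinds. On it MHC-II-positive macrophages replicate 1 (3.72) lay below MHC-II-negative melanophages replicate 2 (3.79). Without both distant arrays the difference on the brightest probe set was -0.52 (adjusted p = 0.113).

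Hsph1, the HSP110 that recharges HSP70, read 5.67, 5.92 and 6.25 in MHC-II-positive melanophages and 5.29, 5.43 and 5.23 in MHC-II-negative melanophages, against 6.32, 6.88 and 6.68 in MHC-II-positive macrophages and 5.56, 6.68 and 6.55 in MHC-II-negative macrophages. MHC-II-negative macrophages replicate 1 was its 1 macrophage array inside the melanophage range. The difference was -0.81 (SE 0.19, 1.76-fold lower, adjusted p = 0.231 with limma). It was called without that array (-0.99, adjusted p = 0.0363) and without both distant arrays (-0.98, adjusted p = 0.0345). These were the 2 calls in 23 alternative fits. Both leave out its lowest macrophage value, which widens the difference by construction. Hsph1 was also higher in MHC-II-positive cells by 0.50 (adjusted p = 0.435), which did not pass.

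Hspa8, the constitutive HSC70, differed by -0.23 (SE 0.07, adjusted p = 0.39 with limma), and its 3 probe sets gave -0.24, -0.23 and -0.20. The set at -0.20 had an SE of 0.10 and an unadjusted p of 0.0817 with limma. On it both distant macrophage arrays were the highest of their groups (11.39 and 11.81). There MHC-II-positive melanophages replicate 2 (11.39) lay above MHC-II-negative macrophages replicate 3 (11.23). The counts of lower and of separated members rest on the brightest set alone. Of the cochaperones that deliver clients to HSP70 or release them, Bag3 ranged over 6.63 to 8.26 across melanophage arrays, against 7.69 to 8.98 across macrophage arrays (-0.57, adjusted p = 0.717). Its lowest value was on MHC-II-positive melanophages replicate 1, and without that array the difference was -0.30 (adjusted p = 0.896). Dnaja1 (-0.22) and Dnajb1 (-0.18) overlapped between the cell kinds. The mitochondrial pair Hspd1 (-0.07) and Hspe1 (-0.09), which together fold proteins in the matrix, and the cytosolic Hsp90aa1 (-0.26) overlapped as well. A further probe set of Hspd1 gave 0.08, opposite in sign.

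Arrays of a group differed in the members' overall level. The mean log2 value over the 38 genes was 7.36, 7.63 and 7.75 in MHC-II-positive melanophages and 7.54, 7.41 and 7.54 in MHC-II-negative melanophages, against 7.92, 7.97 and 7.66 in MHC-II-positive macrophages and 7.55, 7.91 and 7.96 in MHC-II-negative macrophages. Both distant macrophage arrays lay at melanophage levels. MHC-II-positive macrophages replicate 3 was the lowest of its 3 arrays for 23 of 38 members (33% of all genes), 20 immediate early and 3 heat shock. MHC-II-negative macrophages replicate 1 was the lowest for 27 (29.5% of all genes), 20 immediate early and 7 heat shock. Over all genes, MHC-II-negative macrophages replicate 1 was the highest of its group for 48.3%, and MHC-II-positive macrophages replicate 3 for 39.9%. The members are brighter than most genes, so these shares over all genes are not shares of genes of like level.

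Among the members, melanophage arrays showed the same kind of split. MHC-II-positive melanophages replicate 1 was the lowest of its group for 27 of 38 members (34.1% of all genes), among them 9 of the 10 heat shock genes. MHC-II-negative melanophages replicate 2 was the lowest for 21 (35.1% of all genes), 17 of them immediate early genes. The counts above are thus over genes that share their low and high arrays.

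**Figure D5:**
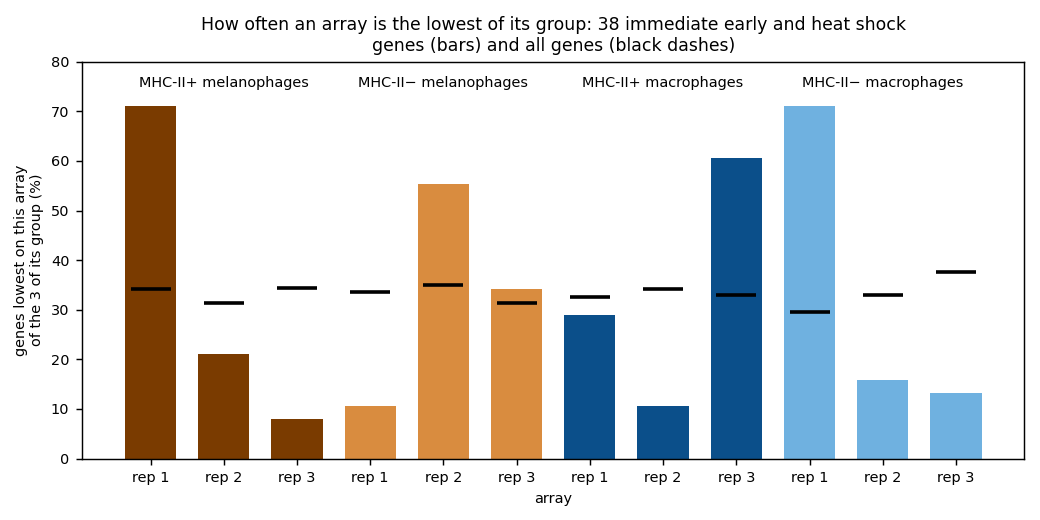
Percent of genes for which an array is the lowest of the 3 in its group, for the 38 members (bars) and for all genes (black dashes). In each group 1 bar stands far above its dash. For melanophages it is replicate 1 in the MHC-II-positive group (dash at 34.1%) and replicate 2 in the MHC-II-negative group (35.1%). For macrophages it is replicate 3 in the MHC-II-positive group (33%) and replicate 1 in the MHC-II-negative group (29.5%).

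Without both distant macrophage arrays, 5 members were called lower in melanophages (Nr4a1, Fosl2, Egr2, Hsph1 and Btg2), where 0.587% of all genes were called. For 10 members all 6 melanophage arrays then lay below the 4 macrophage arrays, as for 1.56% of all genes: Jun, Egr2, Nr4a1, Klf6, Btg2, Hspa1a, Hspa8, Hsph1, Bag3 and Hspb1. The median member difference was -0.29. These arrays were singled out in earlier results for their distance over all genes, but they also hold the lowest member levels of the macrophages, so leaving them out raises the macrophage means. Leaving out MHC-II-positive melanophages replicate 1, the lowest melanophage array, moved the median the other way, to -0.15. Over the fits without 1 array, between 33 and 36 of 38 members stayed below 0.

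The median SD between arrays of a group was 0.33 for the members and 0.15 for all genes. The members are brighter than most genes, with Egr3 the lowest at the 70.5th percentile of mean level, so this sets bright genes beside mostly dim ones. Against the median SD of genes of like mean level, 22 of 38 members lay above and the others at or below, which is close to an even split. By group, the members' median SD was 0.28 in MHC-II-positive melanophages and 0.16 in MHC-II-negative melanophages, against 0.32 in MHC-II-positive macrophages and 0.31 in MHC-II-negative macrophages. Gadd45b (0.83), Egr2 (0.65) and Bag3 (0.57) varied most.

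Related genes outside the set were counted in the same fits. Over all genes, the shares at an unadjusted p under 0.05 were 3.42% lower and 4.11% higher in melanophages. In the MHC-II-positive arrays they were 4.62% lower and 4.6% higher. Counts below at an unadjusted p stand against these shares. Counts of called genes stand against 0.12% of all genes between cell kinds and 0.762% between MHC-II classes. Of 39 other immediate early genes measured, 0 were called between cell kinds with limma and 7 were lower and 0 higher at an unadjusted p under 0.05. 33 of the 39 lay below 0, against 45.2% of all genes, with a median of -0.15. The gene with the smallest adjusted p was Plk3, a stress-responsive kinase (-0.78, adjusted p = 0.404). Between MHC-II classes 1 was called, the repressor Nfil3, which rose by 0.67 (adjusted p = 0.033), and 4 were higher and 4 lower by unadjusted p. The mean of this list was 5.90 on MHC-II-positive macrophages replicate 3 and 5.80 on MHC-II-negative macrophages replicate 1, against 6.19 to 6.26 on the other 4 macrophage arrays.

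Of 21 measured kinases and transcription factors upstream of these genes, 0 were called in either averaged comparison with limma. By unadjusted p, 1 was higher and 3 lower in melanophages, and between MHC-II classes 6 were higher and none lower in the MHC-II-positive arrays. The smallest adjusted p values were those of the kinase Rps6ka3 between cell kinds (-0.52, adjusted p = 0.18) and of Creb1 between MHC-II classes (0.35, adjusted p = 0.279).

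NF-kappaB is the other main driver of rapid induction in macrophages, and its feedback genes and early cytokines had calls between MHC-II classes. Of 18 measured feedback genes, 2 rose in MHC-II-positive cells with limma, Tnip3 by 2.48 and Traf1 by 1.18 (adjusted p = 9.83e-05 and 9.25e-05). 11 were higher and 1 lower at an unadjusted p under 0.05, and the median was 0.39. The list of 17 early cytokine and chemokine genes also holds Ptgs2, which encodes an enzyme of prostaglandin synthesis. Of the 17, 3 rose, Ptgs2 by 2.69, Il1b by 1.56 and Il10 by 1.08 (adjusted p = 9.83e-05, 9.83e-05 and 0.033). Between cell kinds 0 of either list were called, with 3 and 1 lower and 0 higher at an unadjusted p under 0.05. The smallest adjusted p values there were those of Traf1 (-0.30, adjusted p = 0.331) and of Osm (-0.66, adjusted p = 0.601). Traf1 averaged 4.02 in MHC-II-positive melanophages and 4.62 in MHC-II-positive macrophages. In MHC-II-negative melanophages (3.13) and macrophages (3.14) it lay near the array medians.

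Of 40 other chaperones and cochaperones, 0 were called between cell kinds, 2 were lower and 0 higher at an unadjusted p under 0.05, and the median was -0.05. Cdc37, which loads kinases onto HSP90, had the smallest adjusted p there (-0.43, adjusted p = 0.14). Averaged over cell kind, it rose by 0.61 in MHC-II-positive cells (adjusted p = 0.00794 with limma). Its mean was 4.68 in MHC-II-positive macrophages, against 3.89 in MHC-II-positive melanophages, 3.71 in MHC-II-negative macrophages and 3.63 in MHC-II-negative melanophages. The MHC-II difference of Cdc37 was called within macrophages, while within melanophages 0 of the list were called. Between MHC-II classes 6 of the 40 were higher and 1 lower at an unadjusted p under 0.05. Of 22 genes of the endoplasmic reticulum's unfolded protein response, 0 were called between cell kinds with 1 lower by unadjusted p, Sdf2l1 (-0.24, adjusted p = 0.655). Pdia6, a disulfide isomerase, rose by 0.86 in MHC-II-positive cells (adjusted p = 0.0192), where 3 of the 22 were higher and 1 lower by unadjusted p.

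Markers of other cells were read beside these results. Of 10 dendritic cell markers, Cd207 (-1.16, adjusted p = 0.0262) and Itgax (-0.80, adjusted p = 0.0404) fell in melanophages with limma. Ccr7 (1.97), Itgax (1.26) and Cd207 (1.20) rose in MHC-II-positive cells (adjusted p = 0.00645, 0.000379 and 0.00356). By unadjusted p, 4 of the 10 were higher there and 0 lower. Within macrophages Cd207 and Itgax were called, and within melanophages 0 of the list were. The fall of these 2 in melanophages was called among MHC-II-positive cells, and among MHC-II-negative cells 0 were called. In MHC-II-positive macrophages Cd207 averaged 5.17 and Itgax 5.47, against 3.17 and 4.03 in MHC-II-positive melanophages. The mean of this list was 3.21 to 3.53 in MHC-II-positive melanophages and 2.94 to 3.07 in MHC-II-negative melanophages, against 3.63 to 3.79 in MHC-II-positive macrophages and 2.96 to 3.13 in MHC-II-negative macrophages. Of 9 T cell and ILC markers, 4 lay below 0 between MHC-II classes, and the median was 8.03e-05. At an unadjusted p under 0.05, 1 was lower and 2 were higher. Those 2, Il7r (1.94) and Cd2 (1.37), rose in MHC-II-positive cells (adjusted p = 0.00406 and 0.000454). Between cell kinds neither was called, and they lay in opposite directions, Il7r at 0.85 (adjusted p = 0.375) and Cd2 at -0.52 (adjusted p = 0.261). Il7r averaged 8.78 in MHC-II-positive melanophages and 7.85 in MHC-II-negative melanophages, against 8.94 in MHC-II-positive macrophages and 5.98 in MHC-II-negative macrophages. Cd207 lay near the array medians in 3 of the groups. The part of such cells in the member differences was not tested.

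Markers of melanocytes, keratinocytes, fibroblasts, endothelial cells, neutrophils and mast cells gave 0 calls in both averaged comparisons with limma. At an unadjusted p under 0.05 each of these lists had at most 2 markers in either direction between cell kinds, and at most 3 between MHC-II classes (mast cell markers, lower in MHC-II-positive cells). Melanocyte markers averaged 3.00 to 3.15 in MHC-II-positive melanophages and 3.05 to 3.13 in MHC-II-negative melanophages, against 2.90 to 2.98 in MHC-II-positive macrophages and 2.94 to 3.06 in MHC-II-negative macrophages, which are values at the array medians. Tyr, the melanin-making tyrosinase, averaged 2.23 to 2.30 over the groups. Of the 11 core macrophage markers 0 were called with limma, with 1 higher and 2 lower by unadjusted p between cell kinds and 3 higher and 1 lower between MHC-II classes. Itgam, the CD11b of the gate, came closest between cell kinds (-1.02, adjusted p = 0.0772).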

How the data were processed

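RNA of sorted skin cells was amplified, labelled with biotin and hybridised to 12 arrays, per the labels' protocols. The authors deposited log2 expression values. The submitters' processing notes name oligo, an R package, and its robust multi-array average (RMA). The genome build, versions and settings were not given in the sources used here. RMA sets all arrays to a shared distribution of values, so an overall shift in expression would not be seen. The value table holds 35556 probe sets, of which 21789 carry 1 gene symbol and 1621 several in the platform annotation. The brightest probe set by mean level was kept for each of 19938 genes, with no filter on dim genes.

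Groups came from the cell type entries of the labels. limma 3.58.1 in R 4.3.3 fitted a mean per group over the whole set of 12 arrays, with 8 residual and 2.44 prior degrees of freedom. It tested the 7 comparisons, two-sided, with Benjamini-Hochberg adjustment over all genes. The fit was tested on simulated data. The number of arrays limits the precision, and errors are standard errors (SE) of the fit.

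The members, the gene lists and the arrays left out together were chosen with earlier results of these data known. All members are named. From each list the called genes are named, up to 6 by size, or else the gene with the smallest adjusted p. For most lists of markers of cells other than dendritic cells and lymphocytes, only counts are given. Alternatives were filters on dim genes, normalization (quantile, median centring, cyclic loess), the choice of probe sets, the variance model, array weights, a replicate block, 2-group fits and fits without single arrays. Promoter windows are RefSeq's, and motifs were counted with Python 3.11.15. Members share low and high arrays, so no test was made over the set.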

Additional observations from a re-analysis of the deposited data

How the results depend on the processing

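The members' results rest on 3 arrays a group and on genes that share low arrays. The alternative fits followed 24 member differences. Most were picked for a small p in these same data, so few could be expected to reverse. In fits across arrays 0 changed direction. 13 stayed on the same side of the threshold in all fits, and these 13 were called in no fit. The calls over 12 arrays were lost in 14 of 23 fits for Nr4a3, 1 of 23 for Rhob and 13 of 24 for Rhob within macrophages. The median member difference between cell kinds stayed between -0.29 and -0.15 over 23 settings. Without both distant macrophage arrays, members called between cell kinds numbered 5 (0 over 12 arrays), 2 in MHC-II-positive cells and 1 in MHC-II-negative cells, and all genes called 117, 34 and 12, against 24, 3 and 1 over 12 arrays. Genes called between cell kinds were 38 with genes above the median gene, 15 with median centring, 1 with every probe set and 45 with array weights. In MHC-II-positive cells they were 5 with genes above the median gene, 0 with quantile normalization, 5 with every probe set, 11 with a robust variance trend, 6 with array weights and 0 in a 2-group fit. In MHC-II-negative cells they were 2 with every probe set, 11 with the robust trend, 6 with the replicate block and 0 in a 2-group fit. Members called between MHC-II classes, 2 in all, were 1 (Rhob) with median centring, with every probe set and with the replicate block, and 3 (Fosl2, Myc and Rhob) without both distant arrays. Within macrophages the 1 member called became 0 with genes above the median gene, median centring, the robust trend, the replicate block and a 2-group fit, which called 27 genes against 68, and 2 with array weights. Without 1 array, genes called ranged over 1 to 30 between cell kinds, 0 to 20 in MHC-II-positive and 0 to 8 in MHC-II-negative cells, 96 to 158 between MHC-II classes, 19 to 46 within melanophages, 47 to 92 within macrophages and 0 to 3 for the interaction. Members called then ranged over 0 to 1 between cell kinds, where the 1 was Hsph1 without MHC-II-negative macrophages replicate 1 and Hspb1 without MHC-II-positive macrophages replicate 1. Members ranged over 1 to 2 between MHC-II classes and 0 to 2 within macrophages. The cause of these changes was not tested.

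The title codes fall into 3 runs of 4 arrays, 1 of each group, and the labels do not say what they mark. Over all genes, same-run arrays deviated together in only 5 of 18 pairs (correlation over 0.1, range -0.25 to 0.27). The main fit therefore did not pair arrays by run. Some members did move with the run: Hsp90aa1 and Hspd1 were lowest on replicate 1 in every group. With the run as a block, the SE of the cell kind difference was 0.08 for Hsp90aa1 (0.18 without the block) and 0.11 for Hspd1 (0.20). It was 0.14 for Hsph1 (0.19) but 0.26 for Jun (0.24). As a replicate block the runs left 0 members called between cell kinds, and Nr4a3 had an adjusted p of 0.0997 between MHC-II classes. Within the runs, 32, 34 and 28 of 38 cell kind differences lay below 0, and 22 did so in all 3, against 10.7% of all genes. The within-run difference of Egr2, an untested value, was 0.01 in the third run, opposite in sign to the fit. Differences within a run give no count of calls.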
